A study of Mus musculus with 48 samples.

Results

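The 40 genes described here encode proteins that make ribosomes: RNA polymerase I and its factors, nucleolar proteins that modify ribosomal RNA, and assembly factors of the small and large subunits. They were found by gene symbol in the probe annotation of the array platform, with 1 probe set per gene, the one with the highest mean over the 48 arrays. All 40 were measured, among 18193 genes in the whole data set. By role, 7 belong to RNA polymerase I, 3 to the box C/D and 4 to the H/ACA small nucleolar ribonucleoproteins (snoRNPs), 5 are nucleolar chaperones and scaffolds, 10 assemble the small subunit and 11 assemble the large subunit.

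Ribosomes are built in the nucleolus, where RNA polymerase I copies the ribosomal DNA repeats into one long precursor RNA. Box C/D snoRNPs methylate that RNA and H/ACA snoRNPs pseudouridylate it, while assembly factors fold, cut and export the 2 subunits. The pathway is known for its tie to cell growth and to Myc, a transcription factor that raises many of its genes in dividing cells, and growing muscle fibres also make ribosomes.

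The cells were C2C12, a single established line of mouse myoblasts, which leave the cell cycle and join into multinucleate myotubes once serum is withdrawn. Cells in growth medium, which held 20% fetal bovine serum, were sampled 24 h before induction (-24 h) and at induction (0 h). Cells moved to differentiation medium, which held 2% horse serum, were sampled at 0.5, 1, 1.5, 2, 3, 6, 9, 12, 24, 48, 96 and 144 h. Further cells were given 50 µM cycloheximide, a blocker of protein synthesis, 1 h before the change of medium and were sampled at 1 h and 3 h of differentiation. Each of the 16 groups had 3 Affymetrix arrays, from growths at successive passages. The labels name no cells kept in growth medium after 0 h and no drug-treated cells at 0 h, so an effect of the new medium and one of longer culture cannot be told apart.

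Levels are log2 values from RMA, a procedure that removes background, brings arrays to a common scale and combines the probes of a set into 1 value. A difference of 1 is a 2-fold change, and levels of different probe sets are not compared. Array medians ran from 4.20 to 4.24 on the 6 cycloheximide arrays and from 4.0 to 4.16 on the other 42. Any pair of the 6 cycloheximide arrays held exactly equal values for 1240 to 1851 of 45101 probe sets, against 2 to 24 for a pair within an untreated group, 0 to 67 for a pair from different untreated groups and 0 to 2 for a pair of a cycloheximide array with an untreated one. The sources used here do not say whether the 6 arrays were summarised in a run of their own. Of 5 myoblast markers, Myod1 (8.81 to 11.13), Des (9.94 to 12.30), Cdh15 and Pax7 lay above every array median on all 48 arrays, while Myf5 ran from 4.0 to 9.08. The 3 bone markers reached at most 4.19. Of 5 fat cell markers, Adipoq reached 3.36 and Fabp4 4.27, but Pparg reached 6.20, Cebpa 9.22 and Lpl 11.86. Of 4 leukocyte markers, Ptprc, Cd68 and Itgam reached at most 3.86, while Cd14 ran from 5.01 to 7.27. Differences below come from limma with 1 coefficient per group, fitted to all 48 arrays. A gene was called risen or fallen at a Benjamini-Hochberg adjusted p under 0.05 over the 18193 genes, and standard errors (SE) are those of the fit.

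Over the last day in growth medium, the genes moved down together. At 0 h every one of the 40 means lay below its mean at -24 h, and 20 genes fell past the test while none rose, where 5.86% of all genes tested fell and 7.26% rose. Among probe sets not used, 1 each of Bop1 (0.079), Nip7 (0.125) and Polr1a (0.072) differed in the opposite direction, none called. The fall of Nip7 was not called with the mean of its probe sets (limma adjusted p = 0.49), nor were those of Mybbp1a, Nolc1 and Nop16 with theirs. The median difference was -0.50, against 0.01 over all genes. In 22 of the 40 genes all 3 arrays at 0 h lay below all 3 at -24 h, as 13% of all genes did. The falls were spread over the roles that modify and assemble ribosomal RNA: 3 of 3 box C/D genes, 3 of 4 H/ACA genes, 4 of 5 nucleolar chaperones and scaffolds, 5 of 10 small subunit genes and 5 of 11 large subunit genes. None of the 7 RNA polymerase I genes fell or rose past the limma test, and 1 of them had an unadjusted p under 0.05. For Taf1d this rests on the probe set used. Others of its sets differed by -1.33, -1.06 and -0.92 (limma adjusted p over all probe sets = 0.000366, 3e-05 and 0.000217), and the rest were lower without a call. The uncalled scaffold was Ddx21, of which another probe set differed by -0.99 (limma adjusted p over all probe sets = 7.16e-06).

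The largest fall was that of Nop58, a core protein of the box C/D particle that carries the methylating enzyme. Nop58 had levels of 7.59, 7.55 and 8.31 at 0 h, against 9.35, 8.80 and 9.04 at -24 h, so that the groups did not overlap. The difference was -1.25 (SE 0.37, limma adjusted p = 0.0196). Fbl, fibrillarin, the methylating enzyme itself, had 10.01, 9.77 and 9.89 at 0 h, against 10.98, 10.53 and 10.61 at -24 h. Again each 0 h array lay below each -24 h array, and the fit gave -0.82 (SE 0.11, limma adjusted p = 1.5e-06). Their partner Nop56 fell by 0.94 on the log2 scale (SE 0.15). Among the H/ACA proteins, Dkc1, dyskerin, the pseudouridine synthase, had 7.27, 7.15 and 7.49 at 0 h, against 8.99, 8.02 and 8.32 at -24 h. The Dkc1 difference was -1.14 (SE 0.25, limma adjusted p = 0.000976). Nhp2, which binds the H/ACA RNA, stood at 9.66, 9.45 and 9.57 at 0 h, against 11.12, 10.33 and 10.32 at -24 h. It fell by 1.03 on the log2 scale (SE 0.16, limma adjusted p = 8.16e-06), while Nop10, the smallest protein of that particle, differed by only -0.12 (SE 0.09).

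Ncl, nucleolin, an abundant RNA-binding protein of the nucleolus, fell by 0.85 on the log2 scale (SE 0.29). Npm1, nucleophosmin, a chaperone that holds the outer nucleolus together, fell by 0.55 (SE 0.16), and Nolc1, a scaffold for snoRNPs, by 0.72 (SE 0.24). The smallest call of that role was Mybbp1a, a Myb-binding nucleolar protein, with -0.35 (SE 0.11). The calls of Ncl, Npm1, Nolc1 and Mybbp1a were all lost after centring on 12 housekeeping genes. Those of Nolc1 and Mybbp1a were also lost when only the groups compared were fitted, and that of Ncl without any of 5 of its 6 arrays. Among assembly factors the largest falls were those of Rrp12, which helps export pre-ribosomes (-0.96, SE 0.29), and Ebna1bp2, a large subunit factor (-0.67, SE 0.16). Wdr12, which works with Bop1 and Pes1 in the PeBoW complex of the large subunit, fell by 0.60 (SE 0.15), while its partners differed by -0.50 (Bop1, limma adjusted p = 0.24) and -0.25 (Pes1, limma adjusted p = 0.374). The smallest small subunit difference was that of Nop14 (-0.11, SE 0.16).

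In the polymerase group the differences ran from -0.43 (Taf1d, a subunit of the promoter selectivity factor SL1, limma adjusted p = 0.31) to -0.03 (Taf1a, another SL1 subunit, limma adjusted p = 0.968). Polr1b, the second largest subunit of the polymerase, differed by -0.37 (SE 0.14, limma adjusted p = 0.0696). Polr1a, the largest subunit, Polr1c, a subunit shared with RNA polymerase III, and Rrn3, the factor that makes the polymerase able to start, lay between -0.14 and -0.12. Ubtf, the protein that opens ribosomal DNA for the polymerase, differed by -0.04 (SE 0.22).

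The count of 20 falls depended on single arrays. It was 7 without replicate 1 at -24 h, where 3.09% of all genes fell, and 10 without replicate 2 at 0 h, where 4.3% fell. The first of these arrays was the highest of its group in Nop58, Fbl, Dkc1 and Nhp2. It was 12 when only the 6 arrays compared were fitted, where 6.19% of all genes fell, and 12 after centring on 12 housekeeping genes, where 3.48% fell. The calls of Fbl, Nop56, Nhp2, Utp20, Dkc1 and Ltv1 stood under the 8 alternatives and without any one of the 6 arrays, and that of Gar1 under the 7 that could be run for it. A list of 11 proliferation markers moved the same way: its mean level was 9.47 at 0 h and 10.39 at -24 h, and 8 of its 11 genes fell. A list of 6 myotube markers averaged 7.45 at 0 h and 4.93 at -24 h. The part of either list in the fall of the 40 genes was not tested. In these bulk samples fewer cells of a type and less RNA per cell cannot be told apart.

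**Figure D1:**
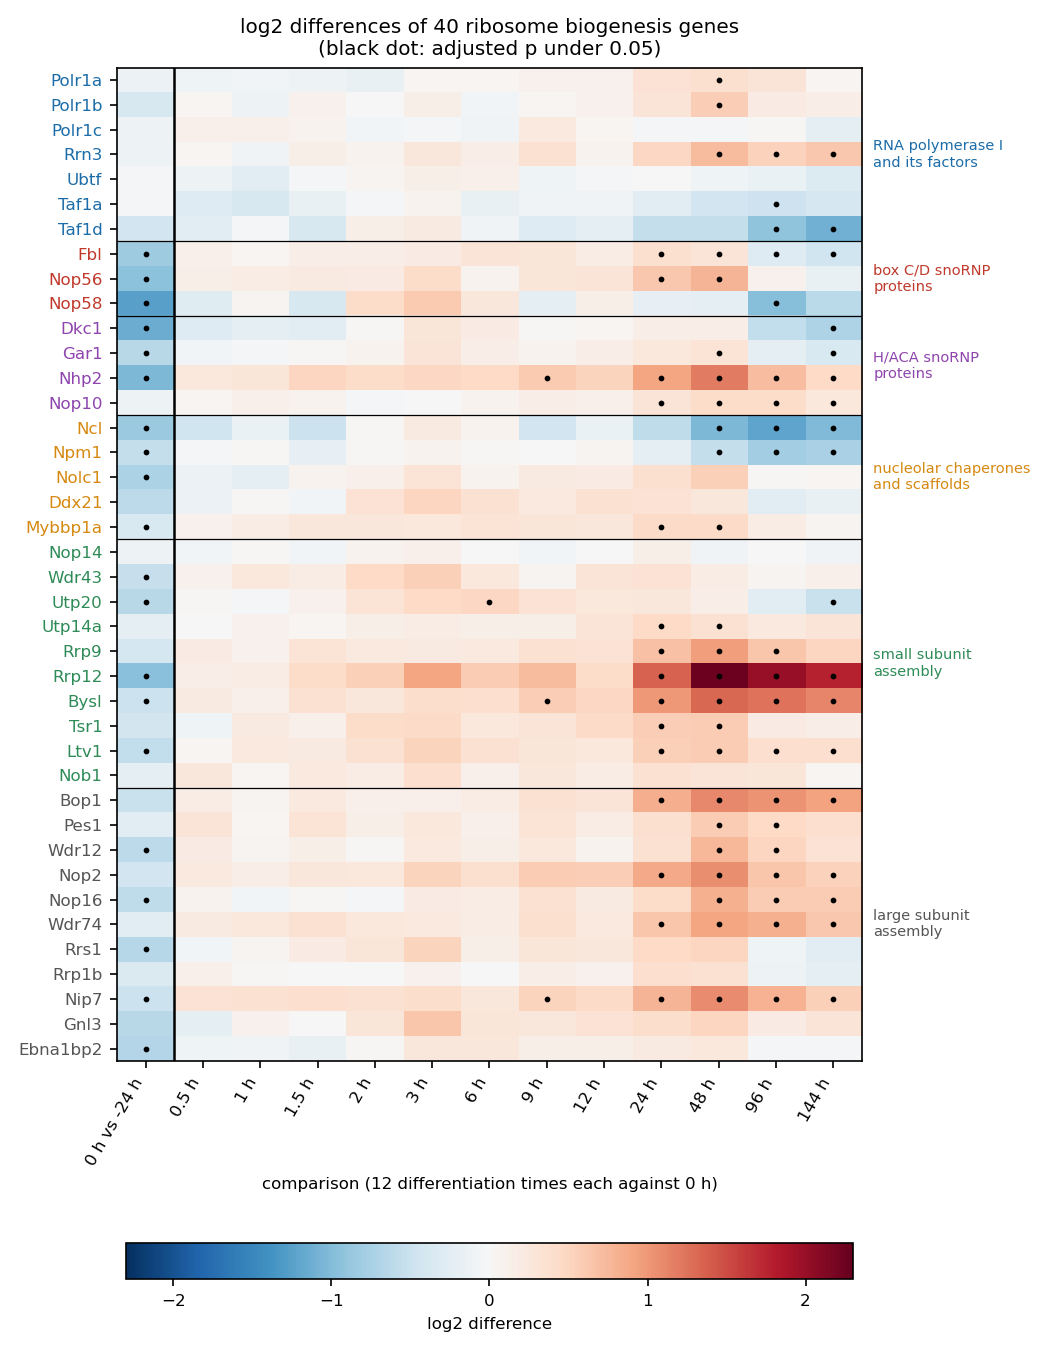
Log2 differences of the 40 genes (rows, grouped by role) for 0 h against -24 h (leftmost column) and for 12 differentiation times against 0 h. Red is higher, blue is lower, and a black dot marks an adjusted p under 0.05; the left column holds 20 dots, all blue, and the 48 h column 22 red and 2 blue.

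In the first hours after the change of medium few of the 40 genes differed from 0 h. No member was called at 0.5, 1, 1.5, 2 or 3 h, where 0.0385%, 0.192%, 0.423%, 0.517% and 0.39% of all genes were called by limma. At an unadjusted p under 0.05, the numbers of members were 1, 1, 6, 7 and 16 at those times. When the replicate number was added to the fit as a block, 2 members rose at 2 h and 7 at 3 h. At 3 h, 39 of the 40 means lay above 0 h, with a median difference of 0.25, against -0.01 over all genes. In 16 genes the 3 arrays at 3 h lay above the 3 at 0 h, as 6.41% of all genes did. Ltv1, a late small subunit factor, came nearest to a call, with 9.12, 8.97 and 9.21 at 3 h, against 8.66, 8.40 and 8.69 at 0 h (difference 0.51, SE 0.13, limma adjusted p = 0.0556). Rrp12 had the largest difference at that time, 0.91 (SE 0.29, limma adjusted p = 0.212).

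From 6 to 12 h the calls were few. Utp20, a large scaffold protein of the small subunit precursor, rose at 6 h by 0.48 (SE 0.12, limma adjusted p = 0.0475), when 0.148% of all genes rose. Its levels were 8.32, 8.03 and 8.28 at 6 h and 7.81, 7.62 and 7.78 at 0 h. At 9 h, when 0.748% of all genes rose, the 3 risen genes were Nhp2 (0.61), Bysl (0.56), a late small subunit factor, and Nip7 (0.51), placed here with the large subunit by its role in yeast. Their limma adjusted p values lay between 0.0371 and 0.048. At 12 h no member was called by limma, with 8 at an unadjusted p under 0.05, where 2.82% of all genes were called. Without replicate 1 at 0 h, 1 member was called at 12 h. Leaving out any one 0 h array, or replicate 1 or 3 at 6 h, ended the call of Utp20. At 9 h no member was called without replicate 2 or 3 at 0 h or replicate 1 or 2 at 9 h, and 1 without replicate 1 at 0 h.

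The main rise came at 24 and 48 h. At 24 h, 15 genes rose and none fell, where 6.56% of all genes rose and 7.42% fell. At 48 h, 22 rose and 2 fell, where 12.4% of all genes rose and 14.3% fell. The median difference was 0.36 at 24 h and 0.43 at 48 h, against 0.05 and 0.06 over all genes. In 27 genes the 24 h arrays all lay above the 0 h arrays, as in 19% of all genes, and at 48 h that held for 22 genes and 20.3% of all genes. Of the 12 differentiation times, 48 h had the highest mean for 20 members and 3 h for 13. The first call came at 24 h for 12 members and at 48 h for 9. Without replicate 2 at 0 h, the rises at 24 h numbered 9, where 4.48% of all genes rose. After centring on housekeeping genes the calls at 48 h were 15 risen and 4 fallen, where 5.93% of all genes rose and 22.2% fell.

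The largest rises at 48 h were those of small subunit factors, Rrp12 and Bysl. Rrp12 had 6.86, 6.68 and 6.57 at 24 h, 7.83, 7.57 and 7.36 at 48 h, 7.97, 7.25 and 6.84 at 96 h and 7.06, 7.29 and 7.0 at 144 h, against 5.79, 4.99 and 5.24 at 0 h. Every one of those 12 arrays lay above the 0 h arrays, and the 48 h arrays also lay above the -24 h arrays (7.0, 5.99 and 5.90). Its difference from 0 h was 1.36 at 24 h and 2.25 at 48 h (SE 0.29, limma adjusted p = 9.73e-08), a 4.75-fold rise at 48 h. The next largest rises at 24 h were those of Bysl (1.00), Nhp2 (0.90) and Nop2 (0.86). Bysl, bystin, had 9.38, 9.37 and 8.87 at 48 h, against 7.92, 7.84 and 7.89 at 0 h, a difference of 1.33 (SE 0.15, limma adjusted p = 5.96e-09). Rrp9, a protein of the U3 particle that guides early cuts, rose by 0.96 (SE 0.21) at 48 h. Tsr1 and Ltv1, late factors of the small subunit, each rose by 0.58. Nop14, an early factor, had the smallest difference of the role, -0.09 (SE 0.16, limma adjusted p = 0.743).

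Of the large subunit factors, 7 of 11 rose at 48 h, and all 11 means lay above those at 0 h. Bop1 stood at 9.46, 9.49 and 8.86 at 48 h, against 8.48, 8.22 and 7.81 at 0 h, a difference of 1.10 (SE 0.26, limma adjusted p = 0.00111). The other probe set of Bop1 differed by only 0.22 at 48 h. Nip7 had 9.77, 9.68 and 9.50 at 48 h, against 8.62, 8.47 and 8.59 at 0 h. Each 48 h array lay above each 0 h array, and the difference was 1.09 (SE 0.14, limma adjusted p = 8.47e-08). Nop2, a ribosomal RNA methyltransferase, rose by 1.06 (SE 0.16), and Wdr74, which acts on the nucleolar precursor, by 0.91 (SE 0.15). Of the PeBoW partners of Bop1, Wdr12 rose by 0.77 (SE 0.15) and Pes1 by 0.59 (SE 0.16). The other probe sets of Wdr12 differed by only 0.09 and 0.13, and that of Pes1 by 0.68. The smallest difference of this role was that of Ebna1bp2, 0.24 (SE 0.16).

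Of the 7 snoRNP genes, 5 rose at 48 h. Nhp2 had 10.92, 10.79 and 10.55 at 48 h, against 9.66, 9.45 and 9.57 at 0 h, a difference of 1.19 (SE 0.16, limma adjusted p = 1.83e-07). Nop56 rose by 0.78 (SE 0.15). Gar1, another H/ACA protein, rose by 0.32 and Fbl by 0.30 (limma adjusted p = 0.0369 and 0.0465). Both calls were lost after centring on housekeeping genes, when only those groups were fitted, and without any of 4 of the 6 arrays. That of Fbl was also lost with the mean of its probe sets and when probe sets ending in _s_at or _x_at were left out. The enzyme of the H/ACA particle, Dkc1, differed by 0.16 (SE 0.25) and Nop58 by -0.23 (SE 0.37), neither past the test.

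Among the polymerase genes 3 of 7 rose at 48 h. Rrn3 had 8.12, 8.02 and 7.76 at 48 h, against 7.46, 7.15 and 7.11 at 0 h, a difference of 0.73 (SE 0.17, limma adjusted p = 0.00131). Polr1b had 6.91, 6.90 and 6.70 at 48 h, against 6.21, 6.45 and 6.18 at 0 h. Its difference was 0.56 (SE 0.14, limma adjusted p = 0.00185). Polr1a rose by 0.37 (SE 0.14, limma adjusted p = 0.0483), with overlapping arrays, a call lost without replicate 2 or 3 at 0 h or replicate 1 or 2 at 48 h. Polr1c (-0.03, SE 0.15) and Ubtf (-0.09, SE 0.22) stayed uncalled at each of the 12 times.

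RefSeq holds a promoter window, 250 bases before to 50 bases after the start, for 35 of the 40 genes (build GRCm38.p6). CACGTG, the E box that Myc with its partner Max can bind, occurred in the windows of 8 of the 35 members, and in 8.09% of 27025 genes. CCGGAAG, or CTTCCGG on the other strand, the core bound by ETS factors, occurred in 12 of 35 members and in 9.93% of genes. The bases before the start are given for 4 genes that rose at 48 h and for Ncl, which fell, with these motifs in capitals, each read 5′ to 3′ along its own strand. They are examples of risen genes with an E box (Rrn3, Nop2) and without one (Nhp2, Bysl), and do not give its share among risen genes. A match is a description, not a site of binding. The stretches are Rrn3 at chr16:13780449-13780698 (plus), Nop2 at chr6:125131633-125131882 (plus), Nhp2 at chr11:51619523-51619772 (plus), Bysl at chr17:47611493-47611742 (minus) and Ncl at chr1:86359456-86359705 (minus).
Rrn3: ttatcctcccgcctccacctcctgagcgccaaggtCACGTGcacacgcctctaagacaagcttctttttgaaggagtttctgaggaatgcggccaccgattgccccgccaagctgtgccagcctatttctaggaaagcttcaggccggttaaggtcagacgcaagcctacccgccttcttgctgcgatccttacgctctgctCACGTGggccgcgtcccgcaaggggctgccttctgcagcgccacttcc
Nop2: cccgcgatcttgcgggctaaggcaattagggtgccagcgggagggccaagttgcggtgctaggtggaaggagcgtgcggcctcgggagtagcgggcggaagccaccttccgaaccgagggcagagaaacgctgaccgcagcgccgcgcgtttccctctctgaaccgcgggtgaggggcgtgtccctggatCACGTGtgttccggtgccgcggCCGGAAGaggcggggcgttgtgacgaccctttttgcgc
Nhp2: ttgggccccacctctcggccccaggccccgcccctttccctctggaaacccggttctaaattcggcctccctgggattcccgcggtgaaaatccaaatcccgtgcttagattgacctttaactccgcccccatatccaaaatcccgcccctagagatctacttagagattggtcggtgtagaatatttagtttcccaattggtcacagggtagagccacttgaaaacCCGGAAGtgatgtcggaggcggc
Bysl: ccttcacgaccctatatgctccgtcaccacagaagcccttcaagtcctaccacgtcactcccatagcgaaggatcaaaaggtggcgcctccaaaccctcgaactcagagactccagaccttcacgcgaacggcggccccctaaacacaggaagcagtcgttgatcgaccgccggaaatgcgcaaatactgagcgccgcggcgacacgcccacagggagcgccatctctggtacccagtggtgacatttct
Ncl: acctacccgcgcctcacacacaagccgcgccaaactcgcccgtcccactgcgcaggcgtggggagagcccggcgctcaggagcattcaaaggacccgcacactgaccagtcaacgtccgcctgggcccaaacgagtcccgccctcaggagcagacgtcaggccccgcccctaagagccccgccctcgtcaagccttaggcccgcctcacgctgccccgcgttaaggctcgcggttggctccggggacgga
Rrn3 had 2 E boxes and Nop2 had 1, Nop2 and Nhp2 each held 1 CCGGAAG, and neither motif was found in these bases of Bysl and Ncl. Rrn3 is also among the 12 members with CCGGAAG or CTTCCGG in the window, but that match is not within the bases shown, which end before the start.

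**Figure D2:**
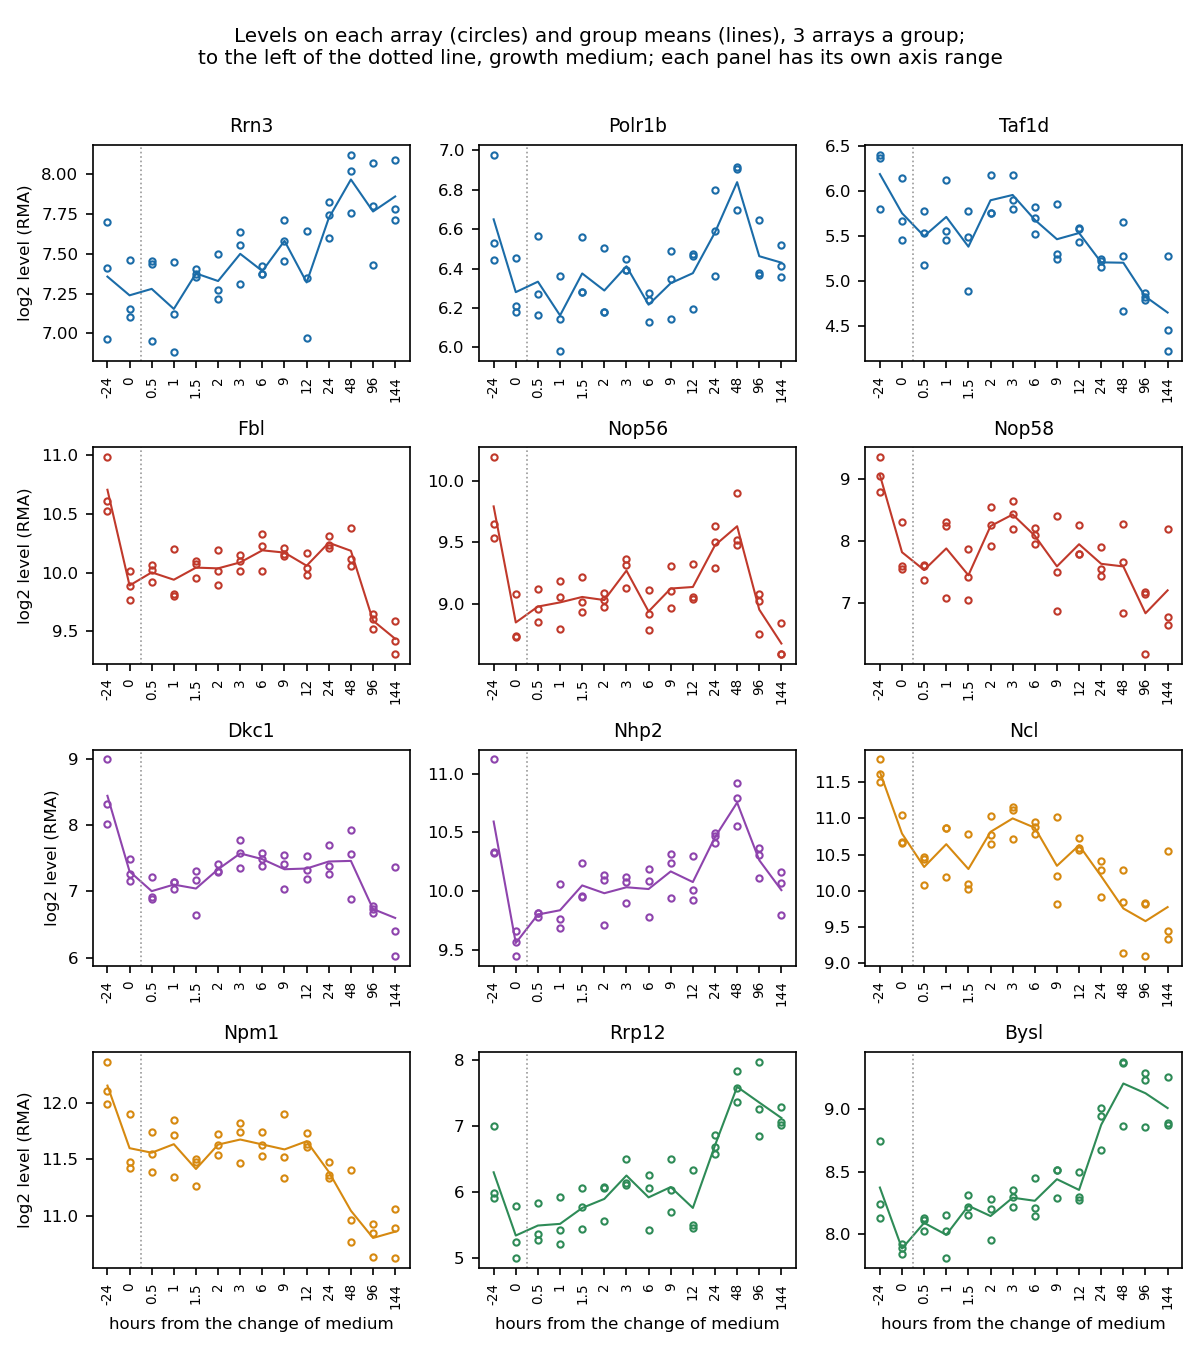
Log2 levels of 12 genes on each array (circles, 3 per group) and group means (lines) against hours from the change of medium; growth medium lies left of the dotted line, and each panel has its own axis range. Rrp12 and Bysl climb to 48 h and stay above 0 h, Fbl and Nop56 lie above 0 h at 48 h and below it at 144 h, and Ncl and Npm1 lie below 0 h from 48 h on.

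A smaller set of genes went down as the myotubes formed. Of the 40, 2 fell at 48 h, 6 at 96 h and 7 at 144 h. Of all genes, 14.3%, 17.1% and 14.9% fell at those times, so the members' share fallen was below or near the background. Ncl had 9.84, 9.15 and 10.28 at 48 h, 9.82, 9.10 and 9.83 at 96 h and 10.55, 9.34 and 9.45 at 144 h, against 10.67, 10.66 and 11.05 at 0 h. All 9 of those arrays lay below the 0 h arrays, with replicate 1 at 144 h close to them. The Ncl differences were -1.03, -1.21 and -1.01 (SE 0.29, limma adjusted p = 0.00553, 0.000963 and 0.00555), and the calls at 48 h and 144 h were each lost without replicate 2 of that time. Of the 4 other probe sets of Ncl, 1 differed in the opposite direction (0.25 at 48 h, not called). Npm1 had 10.85, 10.64 and 10.93 at 96 h, against 11.42, 11.48 and 11.90 at 0 h. It fell by 0.55 at 48 h, 0.79 at 96 h and 0.74 at 144 h on the log2 scale (SE 0.16). Its call at 48 h was lost without replicate 3 at 0 h or replicate 2 at 48 h, and when only those groups were fitted.

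At 96 and 144 h members were called in both directions. At 96 h, 14 genes rose and 6 fell, where 15.5% of all genes rose and 17.1% fell. After centring on housekeeping genes the split was 11 risen and 9 fallen, where 8% of all genes rose and 22.2% fell. After quantile normalization it was 16 and 4, where 17.3% rose and 15.3% fell. At 144 h, 11 rose and 7 fell, where 13.5% of all genes rose and 14.9% fell. The 11 that rose at 144 h had all risen at 48 h too. A further 9 genes risen at 48 h were not called at 144 h, and 2, Fbl and Gar1, had fallen. Calls of a rise at all of 24, 48, 96 and 144 h were made for 9 members, and of a fall at both 96 and 144 h for 4, which were Ncl, Npm1, Fbl and Taf1d. Without replicate 1 at 96 h, 9 rose and 4 fell at that time, where 15.4% of all genes rose and 16.4% fell. Without replicate 2 at 144 h, 4 rose and 4 fell, where 10.4% of all genes rose and 12.4% fell, so the members' share risen was then near the background.

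Of the 14 genes risen at 96 h, 11 were assembly factors. Rrp12 still stood 2.01 above 0 h at 96 h and 1.78 at 144 h (SE 0.29), and Bysl 1.25 and 1.13 (SE 0.15). Bop1 was higher by 1.03 at 96 h and 0.92 at 144 h, and Nip7 by 0.80 and 0.55. The other probe set of Bop1 differed by only 0.19 and 0.09, and that of Nip7 by 1.12 and 0.83. The median of the large subunit genes was 0.49 at 96 h and 0.39 at 144 h, and that of the small subunit genes 0.25 and 0.23, against 0.07 and 0.04 over all genes. Pes1 and Wdr12 rose at 96 h (0.46 and 0.49) and were not called at 144 h (0.39 and 0.33, limma adjusted p = 0.0581 and 0.0895). At 96 h the other probe sets of Wdr12 differed by -0.002 and 0.16, and that of Pes1 by 0.33. The smallest differences of these roles at 96 h were those of Nop14 (0.02, SE 0.16) and Ebna1bp2 (-0.05, SE 0.16). The lowest means of these roles at 144 h, relative to 0 h, were those of Utp20, which fell by 0.51 at 144 h (SE 0.12), and Rrs1, needed for the 5S particle, at -0.24 (SE 0.21, limma adjusted p = 0.448).

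Of the 3 box C/D genes, Fbl and Nop58 fell at 96 h and Fbl at 144 h, and none rose. The fall of Fbl at 96 h, by 0.30 on the log2 scale (SE 0.11), was lost without any of 5 of its 6 arrays, when only those groups were fitted, and when probe sets ending in _s_at or _x_at were left out. Fbl had 9.31, 9.59 and 9.42 at 144 h, against 10.01, 9.77 and 9.89 at 0 h, with no overlap and a difference of -0.45 (SE 0.11, limma adjusted p = 0.0016). Nop58 had 7.15, 6.18 and 7.17 at 96 h, against 7.59, 7.55 and 8.31 at 0 h. Its difference of -0.98 (SE 0.37, limma adjusted p = 0.0404) was lost without replicate 3 at 0 h, without replicate 2 at 96 h and after quantile normalization. Nop56 stood near its 0 h level, at 0.10 (SE 0.15) and -0.17 (SE 0.15). The role's median was -0.30 at 96 h and -0.45 at 144 h. The H/ACA proteins moved both ways: Nhp2 and Nop10 rose at 144 h (0.45 and 0.24), while Dkc1 and Gar1 fell by 0.70 and 0.36 on the log2 scale. The Dkc1 arrays at 144 h, 7.37, 6.41 and 6.02, overlapped those at 0 h, 7.27, 7.15 and 7.49, and its call was lost without any of 4 arrays.

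In the polymerase group Rrn3 was still higher, by 0.53 at 96 h and 0.62 at 144 h (SE 0.17). Taf1d had 4.83, 4.87 and 4.79 at 96 h, against 5.66, 5.46 and 6.14 at 0 h, and fell by 0.92 on the log2 scale (SE 0.24, limma adjusted p = 0.00286) and by 1.10 at 144 h. Its probe set is of a type that can cross-hybridise, and the call was lost when the mean of its 7 probe sets was used. Another of these probe sets moved in the opposite direction, by 0.67 at both 96 h and 144 h (SE 0.17, limma adjusted p over all probe sets = 0.00293 and 0.00299). Taf1a fell by 0.47 at 96 h (SE 0.19, limma adjusted p = 0.0478), with overlapping arrays, a call lost after quantile normalization. Polr1a, Polr1b and Polr1c were called at neither time, with 0.30, 0.18 and 0.03 at 96 h. Nolc1, of the nucleolar scaffolds, differed by 0.02 at 96 h (SE 0.24).

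**Figure D3:**
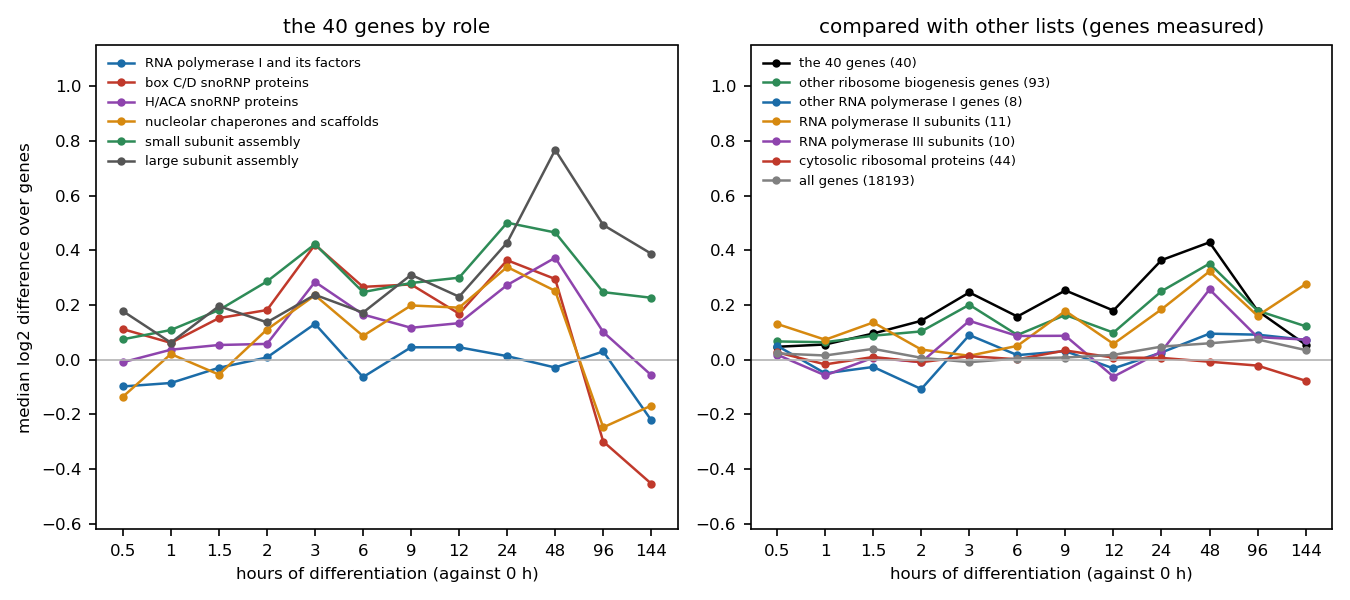
Median log2 difference from 0 h over the genes of each role (left) and over the 40 genes and other lists (right) at 12 differentiation times. The large subunit line peaks at 0.77 at 48 h, the box C/D line ends at -0.45 at 144 h, and the line of all genes stays between -0.01 and 0.07.

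Between 48 and 96 h most of the genes went to lower levels. Of the 40 means, 38 were lower at 96 h than at 48 h, with a median difference of -0.27, against 0.01 over all genes. Past the test, 4 genes fell and none rose, where 2.68% of all genes fell and 1.96% rose. They were Nop56 (-0.68, SE 0.15), Fbl (-0.59, SE 0.11), Gar1 (-0.54, SE 0.12) and Utp20 (-0.41, SE 0.12). Fbl had 9.61, 9.65 and 9.52 at 96 h, against 10.38, 10.12 and 10.06 at 48 h, without overlap. Nop56 had 9.03, 9.08 and 8.75 at 96 h, against 9.90, 9.47 and 9.51 at 48 h, again without overlap. In 10 genes the 96 h arrays all lay below the 48 h arrays, as in 6.66% of all genes. The count was 2 without replicate 1 at 48 h and 0 when only these 6 arrays were fitted. From 96 to 144 h no member was called by limma, with 1 at an unadjusted p under 0.05, and 0.313% of all genes were called.

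Proliferation markers dropped in the same interval. Their list mean was 9.08 at 48 h, 7.75 at 96 h and 7.16 at 144 h, 10 of 11 genes fell at 96 h against 48 h, and single 96 h arrays ran from 7.15 to 8.42. The myotube list averaged 12.07 at 48 h and 12.19 at 144 h. Their part in the changes of the 40 genes was not tested.

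Across the 12 times together, an F-test against 0 h called 28 of 40 members, where 38.2% of all genes were called. Of the 40 genes, 11 were called at none of the single times with the probe set used. Among them are Ddx21 and Wdr43, of which another probe set passed the test at 96 h. The 0 h group had the lowest of the 14 untreated means for 14 members and 144 h for 10, while 48 h had the highest for 17 and -24 h for 13. At 48 h, 21 means lay above those at -24 h and 19 below.

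Set against the median profile of the other members over the 14 untreated group means, Pearson's r was highest for Nolc1 (0.919), Nop56 (0.907) and Nhp2 (0.892). It was 0.622 in the middle gene. The profiles least like it were those of Taf1a (0.013), Polr1c (0.018), Ncl (0.034), Npm1 (0.048) and Taf1d (0.049). These correlations describe 14 group means that share arrays and scaling, and each gene was left out of the median it is set against.

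The cycloheximide arrays were set against untreated arrays of the same time. As deposited, 11 members rose and none fell at 1 h of differentiation, where 24.2% of all genes rose and 0.418% fell. At 3 h, 11 rose and none fell, where 30.9% of all genes rose and 3.42% fell. The member share was thus near the background at both times, and the median member difference, 0.32 and 0.31, stood beside a shift of 0.20 and 0.19 in all genes. After quantile normalization of the 48 arrays 2 members rose at 1 h, where 4.42% of all genes rose. At 3 h 5 rose and 6 fell, where 12.9% of all genes rose and 11.1% fell, so these counts too lay near the background. The member medians were then 0.01 and 0.03. Given the equal values described above, an effect of the drug and one of separate processing cannot be told apart in these comparisons. The count at 1 h was 7 without untreated replicate 2, 5 without untreated replicate 3 and 6 without drug replicate 3, and that at 3 h was 7 without drug replicate 1.

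Taf1a stood apart from the other members. It had 7.70, 7.55 and 7.50 with cycloheximide at 1 h, against 4.47, 5.41 and 4.88 in untreated cells. At 3 h it had 8.66, 8.57 and 8.49 with the drug, against 5.40, 5.31 and 5.42 without it. The differences were 2.66 and 3.20 (SE 0.19, limma adjusted p = 4.63e-13 and 1.59e-16), and 2.33 and 2.91 after quantile normalization. At both times the lowest array with the drug lay more than 1 unit above the highest without it. Other genes called at 3 h both as deposited and after quantile normalization were Tsr1 (0.96 and 0.81), Nob1, the nuclease that trims small subunit RNA (0.89 and 0.65), Rrp1b, a large subunit factor (0.88 and 0.59), and Nop14 (0.71 and 0.41). Tsr1 had 10.26, 9.80 and 9.86 with the drug at 3 h, against 9.08, 8.74 and 9.20 without it. At 1 h Nob1 had 8.62 on each of the 3 drug arrays, against 8.13, 7.72 and 7.89 without it, a difference of 0.71 (SE 0.15). By role, the smallest differences with the drug at 3 h lay between -0.12 (Fbl) and 0.31 (Polr1a), with Pes1 at 0.03, Gar1 at -0.07, Mybbp1a at 0.09 and Bysl at 0.10.

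After quantile normalization Dkc1 (-0.74), Ubtf (-0.69), Taf1d (-0.67), Ebna1bp2 (-0.51), Gar1 (-0.34) and Fbl (-0.29) fell at 3 h, where 11.1% of all genes fell. None of these 6 was called as deposited, and none fell past the test after centring on housekeeping genes. Of the other probe sets of Taf1d, 2, looked up after its values were seen, were higher with the drug at 3 h by 3.74 and 2.39 and another differed by -1.15, where the one used here differed by -0.37. The change in the drug's difference between 1 h and 3 h compares each set of arrays with itself. By limma it called 0 of 40 members, with 3 at an unadjusted p under 0.05, where 4.29% of all genes were called. The 3, chosen after their values were seen, were Gar1 (-0.47, SE 0.16, limma adjusted p = 0.119), Ubtf (-0.67, SE 0.31, limma adjusted p = 0.34) and Taf1a (0.54, SE 0.26, limma adjusted p = 0.381).

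**Figure D4:**
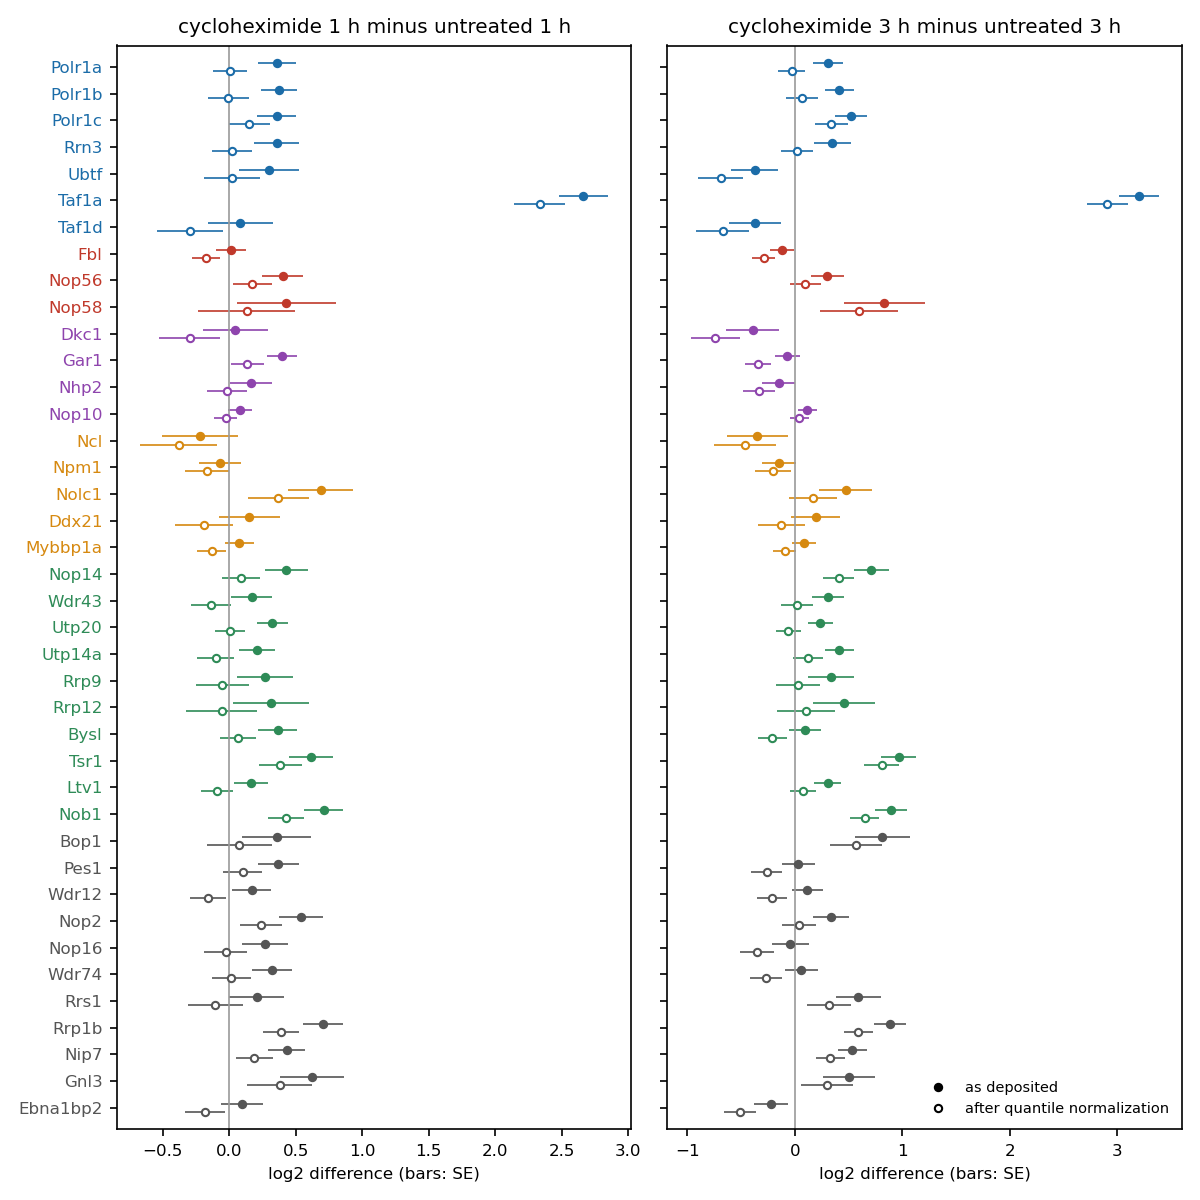
Log2 difference of each gene with cycloheximide against untreated cells at 1 h (left) and 3 h (right), as deposited (filled) and after quantile normalization (open), with SE bars and genes coloured by role. Taf1a lies at 2.66 and 3.20 as deposited, and most other genes move left, towards or past 0, after normalization.

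Myc, which is not one of the 40, was measured beside them. At 0 h against -24 h it differed by -0.04 (SE 0.22, limma adjusted p = 0.964), with overlapping arrays. It had 8.30, 7.51 and 8.31 at 1 h, against 7.13, 6.98 and 7.05 at 0 h, a rise of 0.99 (SE 0.22, limma adjusted p = 0.0378). No later time was called, with a difference of -0.15 at 48 h (SE 0.22). With cycloheximide its difference from untreated cells was 1.50 at 1 h and 4.06 at 3 h (SE 0.22). The change between these differences, 2.56 (SE 0.31, limma adjusted p = 3.25e-07), was called. Untreated Myc itself differed from 0 h by 0.99 at 1 h and -0.22 at 3 h.

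Other ribosome biogenesis genes gave a second view of the pathway, from a list of 96 of which 93 were measured. At 0 h against -24 h, 29 of the 93 fell and 2 rose, with a median of -0.29, where 5.86% of all genes fell and 7.26% rose. The largest falls were those of Lyar, a nucleolar protein of growing cells (-1.39, SE 0.24), Pno1, a small subunit factor (-0.98, SE 0.15), Mphosph10, a U3 protein (-0.74, SE 0.23), and Heatr1, which the first small subunit precursor needs (-0.73, SE 0.14). At 48 h, 42 rose and 3 fell, with a median of 0.35, where 12.4% of all genes rose and 14.3% fell. At 96 h 18 rose and 8 fell, where 15.5% of all genes rose and 17.1% fell. The share of the 93 that rose at 96 h thus lay near the background. At 96 h Lyar (-0.97), the helicase Ddx10 (-0.81) and Nvl (-0.77), an ATPase of the large subunit, were the largest falls, and the helicase Ddx54 (0.75) the largest rise. Of 8 further RNA polymerase I genes, none was called at 0 h against -24 h by limma, with 1 at an unadjusted p under 0.05. At 96 h the subunit gene Cd3eap (0.82, SE 0.17) and the SL1 gene Taf1c (0.61, SE 0.13) rose, while the subunit gene Twistnb (-0.99, SE 0.30) and Taf1b (-0.56, SE 0.20) fell.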

How the data were processed

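RNA was extracted with Trizol and 5 µg per sample was labelled as biotinylated cRNA for Affymetrix mouse genome arrays, per the labels' protocols. The deposited log2 values per probe set were made by the authors with RMA, per the submitters' processing notes, and the version is not given in the sources used here. Of 45101 probe sets, 64 controls were left out and 34945 carried 1 gene symbol. The probe set of highest mean stood for each of 18193 genes. Differences were fitted with limma 3.58.1 in R 4.3.3 (1 coefficient per group, 48 arrays, 32 residual degrees of freedom, prior 4.53), and adjusted by Benjamini-Hochberg, with calls under 0.05. The script was tested on simulated data. Tables were made with Python 3.11.15 and pandas 2.3.3. With 3 arrays per group, the number of arrays limits the precision, and p-values measure the spread between growths of 1 line. Promoter windows came from RefSeq (GRCm38.p6) for 35 members, with none used here for Npm1, Rrs1, Fbl, Bop1 and Rrp12.

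The members, the other gene lists and the markers were chosen with earlier results of these data known. Always named were Fbl, Nop56, Nop58, Dkc1, Ncl, Npm1, Nolc1, Polr1a, Polr1b, Polr1c, Rrn3, Ubtf, Bop1, Pes1, Wdr12 and Myc. Added to them were up to 4 risen and 4 fallen members of largest difference per comparison, the largest and smallest difference per role, up to 4 called genes per other list, and the profiles most and least like the median. Other members illustrate their role. Alternatives were quantile normalization of the deposited values, centring on 12 housekeeping genes, trended and robust variance, fitting only the groups compared, replicate number as a block, the mean of a gene's probe sets, a filter on dim genes, probe sets without the _s_at and _x_at suffixes, and leaving out each array.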

Additional observations from a re-analysis of the deposited data

How the results depend on the processing

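Counts of called members changed by over 1.5 times under these alternatives. At 0 h against -24 h (20 calls), centring on housekeeping genes and fitting only the groups compared each gave 12. At 2 h (0) the replicate block gave 2. At 3 h (0), quantile normalization, the mean of probe sets and the dim filter each gave 1, and the block 7. At 6 h (1), trended variance, centring and only the groups compared gave 0 and the block 2. At 9 h (3), trended variance, the mean of probe sets and leaving out _s_at and _x_at sets gave 1, only the groups compared 0 and the block 5. At 12 h (0), quantile normalization and centring gave 4, only the groups compared 1, the dim filter 2 and the block 5. At 24 h (15), quantile normalization and the block gave 23. At 96 h against 48 h (4), only the groups compared gave 0 and the block 12. With cycloheximide at 1 h (11), quantile normalization and centring gave 2, only the groups compared 6, the mean of probe sets 18 and the block 20, and at 3 h (11) the block gave 22. For the change of the drug's difference (0) the block gave 2. The causes were not tested. At 48 h the split was 26 risen and 2 fallen after quantile normalization. Leaving out each array gave 7 to 21 calls at 0 h against -24 h, 0 to 1 at 6 h, 0 to 4 at 9 h, 0 to 1 at 12 h, 9 to 16 at 24 h, 19 to 25 at 48 h, 13 to 21 at 96 h, 8 to 20 at 144 h, 2 to 6 at 96 h against 48 h, 5 to 12 and 7 to 11 with the drug at 1 h and 3 h, and 27 to 29 by the F-test. Among single genes 2 values turned direction: Polr1b with the drug at 1 h was -0.0059 after quantile normalization, and Taf1d at 3 h was 0.54 with the mean of probe sets. The replicate number was not taken as pairing. Over 360 pairs of same-numbered arrays of different groups, deviations from the group means correlated at -0.46 to 0.738 (median 0.315, 300 of them over 0.1). The median was -0.166 for different numbers. For 44 of 48 arrays the mean correlation with arrays of other groups was highest for their own number, a hint from the data. With that number as a block no call of a single gene was lost and 75 were gained. Centring moved the median of all genes at 0 h against -24 h to 0.15, at 48 h to -0.14, at 144 h to -0.11 and with the drug at 1 h to -0.08, against 0.01, 0.06, 0.04 and 0.20 as deposited.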

Other observations

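Cytosolic ribosomal protein genes, the protein parts of the finished ribosome, were nearly level while the genes above moved. Of 79 listed, 44 were measured by a probe set with 1 symbol. At 0 h against -24 h 1 of the 44 fell (Rps25, -0.58) and none rose, with a median of 0.01. Of all genes 5.86% fell and 7.26% rose. At 48 h 2 rose and none fell, with a median of -0.01, and at 96 h 2 rose and 6 fell. Of all genes, 12.4% rose and 14.3% fell at 48 h, and 15.5% rose and 17.1% fell at 96 h. Rpl14 was the largest rise at 96 h (0.74) and Rps25 the largest fall (-0.50). With cycloheximide at 3 h Rpl12 stood out, at -1.95. Then 2 of the 44 rose and 3 fell, where 30.9% of all genes rose and 3.42% fell.

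RNA polymerase II and III subunits gave a further comparison. Of 11 RNA polymerase II genes, 3 fell at 0 h against -24 h, where 5.86% of all genes fell. At 48 h 7 of the 11 rose and none fell, with a median of 0.32, where 12.4% of all genes rose. At 96 h 5 rose, with Polr2f (0.73) and Polr2g (0.64) ahead, where 15.5% of all genes rose. At 0 h against -24 h, where 7.26% of all genes rose and 5.86% fell, 1 of 10 RNA polymerase III genes rose and 2 fell. These were the paired subunit genes Polr3gl (0.86) and Polr3g (-1.58), which take the same place in the enzyme, and Polr3k (-0.76).

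Probe sets of 1 gene disagreed for some members. At 96 h another probe set of Ddx21 differed by 0.68, against -0.25 for the one used, and another of Wdr43 by -0.87, against 0.07. Both of these others passed the test (limma adjusted p over all probe sets = 0.000431 and 0.0134), and the ones used did not. That set of Ddx21 was also higher by 0.85 at 48 h and 0.45 at 144 h (limma adjusted p over all probe sets = 2.73e-05 and 0.0214). With cycloheximide the further RNA polymerase I genes Ttf1 (1.03 at 1 h, 1.50 at 3 h) and Taf1c (1.03 and 1.24) rose, as did Urb1 (1.09 at 1 h) and Ddx31 (1.42 at 3 h) of the other ribosome biogenesis genes, as deposited.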
